A study of Mus musculus with 63 samples.

Results

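Pramel6, Pramel13, Pramel31, Tdpoz1 and Tdpoz4 are 5 mouse genes of 2 multicopy families, 5 of 16593 annotated genes on the array. They are a chosen part of these families, of which the array held 21 further genes. The 5 members were read by 7 of 25697 probes, of which the second probes of Tdpoz1 and Tdpoz4 lay at the lowest deposited value on all 63 arrays. The other 5 probes, 1 per gene, passed the filter on low values and carry every result here. The study used TT2 mouse embryonic stem (ES) cells, a male line from a C57BL/6 x CBA embryo, grown with serum and leukaemia inhibitory factor (LIF). Its 7 lines were G9a KO1 and G9a KO2, which lack the histone H3 lysine 9 methyltransferase G9a, a reconstituted line, which is G9a KO1 with G9a returned to it, JMJD1a KO1 and JMJD1a KO2, which lack the histone H3 lysine 9 demethylase JMJD1a, and the wild-type lines WT1 and WT2. Each line was kept for 24 h at 21% oxygen (normoxia), for 20 h at 21% and then 4 h at 1% oxygen, or for 24 h at 1% oxygen, starting 18 h after plating. Every line and exposure was run as 3 cultures that were plated at 2, 4 or 6 times 100000 cells per 6 cm plate, so the spread within a line includes density. Each KO genotype is 2 lines, and how the lines were derived or which promoter drove the returned G9a is not given in the sources used here.

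PRAME-like proteins, the products of the Pramel genes, are leucine-rich repeat proteins encoded by large gene clusters in the mouse and known mostly from germ cells and the early embryo. Some of them act as substrate receptors of cullin ubiquitin ligases, and Pramel6 and Pramel7 are known in the inner cell mass and in ES cells for their part in naive pluripotency. Tdpoz genes encode proteins with a TRAF domain and a BTB/POZ domain, an arrangement shared with the cullin adaptor SPOP, and are transcribed in early cleavage embryos. G9a places mono- and dimethyl marks on histone H3 lysine 9 and silences many germline genes in ES cells. JMJD1a, whose gene is Kdm3a, removes these marks and is itself induced by hypoxia.

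The proximal promoters are shown because the members moved together by line but not by exposure. Each runs from 250 bases before to 50 bases after the RefSeq start in build GRCm38.p6, 5′ to 3′ on the gene's strand, with CG dinucleotides and any TATAAA in capitals. Pramel6 lies at chr2:87506315-87506614 on the plus strand. Pramel13 lies at chr4:144408415-144408714 on the minus strand and Pramel31 at chr4:144357714-144358013 on the plus strand, with starts 50500 bases apart. Tdpoz1 lies at chr3:93676234-93676533 on the minus strand and Tdpoz4 at chr3:93796148-93796447 on the plus strand, with starts 120115 bases apart. Pramel20, at chr4:143567217-143567516 on the plus strand, is added because its level across lines was the most like that of Pramel31.
Pramel6: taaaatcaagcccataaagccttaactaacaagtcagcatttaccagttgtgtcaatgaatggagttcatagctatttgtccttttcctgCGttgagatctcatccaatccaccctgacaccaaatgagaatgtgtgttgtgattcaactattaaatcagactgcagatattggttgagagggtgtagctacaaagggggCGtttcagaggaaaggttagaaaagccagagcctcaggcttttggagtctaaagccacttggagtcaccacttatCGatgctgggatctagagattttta
Pramel13: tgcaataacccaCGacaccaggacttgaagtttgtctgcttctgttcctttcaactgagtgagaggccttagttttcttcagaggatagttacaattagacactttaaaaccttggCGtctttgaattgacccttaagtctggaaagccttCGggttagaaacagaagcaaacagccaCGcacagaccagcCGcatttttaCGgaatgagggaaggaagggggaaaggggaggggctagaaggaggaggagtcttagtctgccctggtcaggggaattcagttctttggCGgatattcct
Pramel31: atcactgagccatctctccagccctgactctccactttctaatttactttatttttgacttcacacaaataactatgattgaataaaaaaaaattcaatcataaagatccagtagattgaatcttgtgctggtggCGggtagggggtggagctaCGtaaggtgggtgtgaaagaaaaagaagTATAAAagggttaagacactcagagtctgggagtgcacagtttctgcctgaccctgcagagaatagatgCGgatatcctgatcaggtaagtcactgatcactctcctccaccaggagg
Tdpoz1: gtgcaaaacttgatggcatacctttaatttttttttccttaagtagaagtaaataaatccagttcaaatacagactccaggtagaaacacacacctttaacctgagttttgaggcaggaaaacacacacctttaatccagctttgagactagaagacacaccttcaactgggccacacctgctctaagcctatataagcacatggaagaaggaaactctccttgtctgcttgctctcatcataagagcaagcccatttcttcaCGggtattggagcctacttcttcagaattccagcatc
Tdpoz4: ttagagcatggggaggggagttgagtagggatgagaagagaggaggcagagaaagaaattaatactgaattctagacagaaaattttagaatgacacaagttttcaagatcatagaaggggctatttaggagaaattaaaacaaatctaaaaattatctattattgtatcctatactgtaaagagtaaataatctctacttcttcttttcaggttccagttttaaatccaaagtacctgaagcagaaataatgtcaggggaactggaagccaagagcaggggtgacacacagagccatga
Pramel20: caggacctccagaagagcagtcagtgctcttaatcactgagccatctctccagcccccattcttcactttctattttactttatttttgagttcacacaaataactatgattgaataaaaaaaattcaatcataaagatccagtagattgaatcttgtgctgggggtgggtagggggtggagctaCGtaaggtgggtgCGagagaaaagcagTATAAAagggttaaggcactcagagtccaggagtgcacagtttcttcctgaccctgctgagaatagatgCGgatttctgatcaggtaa

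Pramel13 held 7 CG dinucleotides in this window, Pramel6 and Pramel31 3 each, Tdpoz1 1 and Tdpoz4 0, against a median of 7 over 32841 RefSeq promoters of the same length. The motif TATAAA, searched on both strands, was in 13.6% of all promoters. Pramel31 carried it with its first base 68 bases before the start, and Pramel20 carried it at 38 bases before the start. The letters ACGTG, a form of the core that hypoxia-inducible factors bind, were in 19.6% of all promoters on either strand and in none of the members' windows. Other forms of that core were not searched, so their absence is not shown. The aligned windows of Pramel31 and Pramel20 were identical at 251 of 332 columns (75.6%), whereas those of any pair of members were identical at 41.2 to 48.0%. Tdpoz4 and Tdpoz8 were identical at 282 of 307 columns (91.9%). Such likeness between copies also bears on the probes, since probe sequences were not used here and binding of a probe to transcripts of a sister copy was not tested.

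Values are the authors' processed intensities on a linear scale, here quantile normalised and given as log2. The lowest deposited intensity, 20 or 4.32 on the log2 scale, is a floor that stands for anything dimmer. Between 40.3% and 46.4% of the probes on an array lay above it. Kdm3a was at the floor in JMJD1a KO cultures and 6.08 lower than in WT under normoxia (adjusted p = 0.00734). The probe of Ehmt2, the gene of G9a, was not at the floor in G9a KO cultures, and its log2 level was lower than in WT by 0.86 under normoxia (adjusted p = 0.0312), with 0.41 more in the reconstituted line than in G9a KO1; whether this probe lies in the deleted part is not known, and if it lies outside it checks nothing. Adm, the adrenomedullin gene and a known hypoxia target, was higher after 24 h of hypoxia than under normoxia by 4.02 in G9a KO lines (adjusted p = 1.00e-21) and 3.77 in WT lines (adjusted p = 1.32e-20). Arrays were taken in sets of 8 in accession order. These sets are inferred, since samples were not matched to chips. G9a KO1 and the reconstituted line share no such set, so set and line cannot be told apart there. Whether the 3 cultures of a line were grown apart is not stated, so p-values measure the spread between these cultures or lines. In such bulk RNA a lower level in every cell and fewer cells that express a gene cannot be told apart.

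The lines differed most in Pramel6. In G9a KO1, Pramel6 stood at 9.13, 8.59 and 8.37 under normoxia at densities 2, 4 and 6, at 8.71, 8.65 and 8.46 after 4 h of hypoxia and at 9.06, 8.35 and 8.44 after 24 h. In G9a KO2 it stood at 10.02, 9.48 and 9.18 under normoxia, at 8.90, 8.79 and 8.42 after 4 h and at 9.34, 8.76 and 8.60 after 24 h. All 18 G9a KO cultures were thus far above the floor, whereas 44 of the 45 others lay on it. The exception was the reconstituted line under normoxia at density 2, at 4.98.

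Pramel31 showed the same split at lower levels. In G9a KO1 it stood at 5.39, 5.19 and 4.88 under normoxia, at 5.17, 5.16 and 5.60 after 4 h of hypoxia and at 6.14, 6.86 and 7.76 after 24 h. In G9a KO2 it stood at 5.50, 5.02 and 5.24 under normoxia, at 5.27, 5.09 and 4.85 after 4 h and at 5.97, 6.74 and 7.55 after 24 h. It was at the floor in all 45 cultures of the other lines. The 24 h cultures of each G9a KO line lay above all of its cultures at the other exposures.

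Tdpoz1 was dimmer and less strictly split. In G9a KO1 it stood at 5.28, 5.15 and 4.90 under normoxia, at 5.37, 4.95 and 5.10 after 4 h of hypoxia and at 5.53, 5.90 and 5.96 after 24 h. In G9a KO2 it stood at 5.99, 5.37 and 5.05 under normoxia, at 5.04, 4.99 and 4.38 after 4 h and at 4.97, 5.70 and 5.98 after 24 h. It was above the floor in 18 of 18 G9a KO cultures, in 4 of 9 reconstituted cultures (at 4.44, 4.70 and 4.45 under normoxia and 4.62 at density 2 after 4 h), in 2 of 18 JMJD1a KO cultures and in 0 of 18 WT cultures.

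Tdpoz4 was measurable mainly after 24 h of hypoxia. At that time it stood at 4.83, 5.05 and 5.99 in G9a KO1 and at 4.83, 5.36 and 5.90 in G9a KO2. At the other exposures it was above the floor in 3 of 12 G9a KO cultures, all at density 2, at 4.41 in G9a KO1 and 4.45 in G9a KO2 under normoxia and at 4.59 in G9a KO1 after 4 h. In the JMJD1a KO lines 3 of 18 cultures were above the floor, all after 24 h, the highest at 4.64. It was at the floor in all reconstituted and WT cultures.

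Pramel13 was the one member with a level in every culture. In G9a KO1 it stood at 8.15, 8.03 and 8.02 under normoxia, at 7.59, 7.53 and 7.54 after 4 h of hypoxia and at 8.20, 8.12 and 8.26 after 24 h. In G9a KO2 it stood at 8.09, 7.93 and 8.19, then 7.81, 7.66 and 7.57, then 8.19, 8.15 and 8.14 at the same exposures. The reconstituted line gave 7.48, 7.55 and 7.12 under normoxia, 6.99, 6.89 and 6.92 after 4 h and 7.54, 7.40 and 7.28 after 24 h. The 6 WT cultures of each exposure ran from 7.56 to 7.75 (median 7.62) under normoxia, from 7.19 to 7.51 (median 7.36) after 4 h and from 7.33 to 7.95 (median 7.70) after 24 h. The JMJD1a KO cultures lay close to these, with medians of 7.52, 7.35 and 7.47. In all 4 genotypes the lowest median was that after 4 h.

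**Figure D1:**
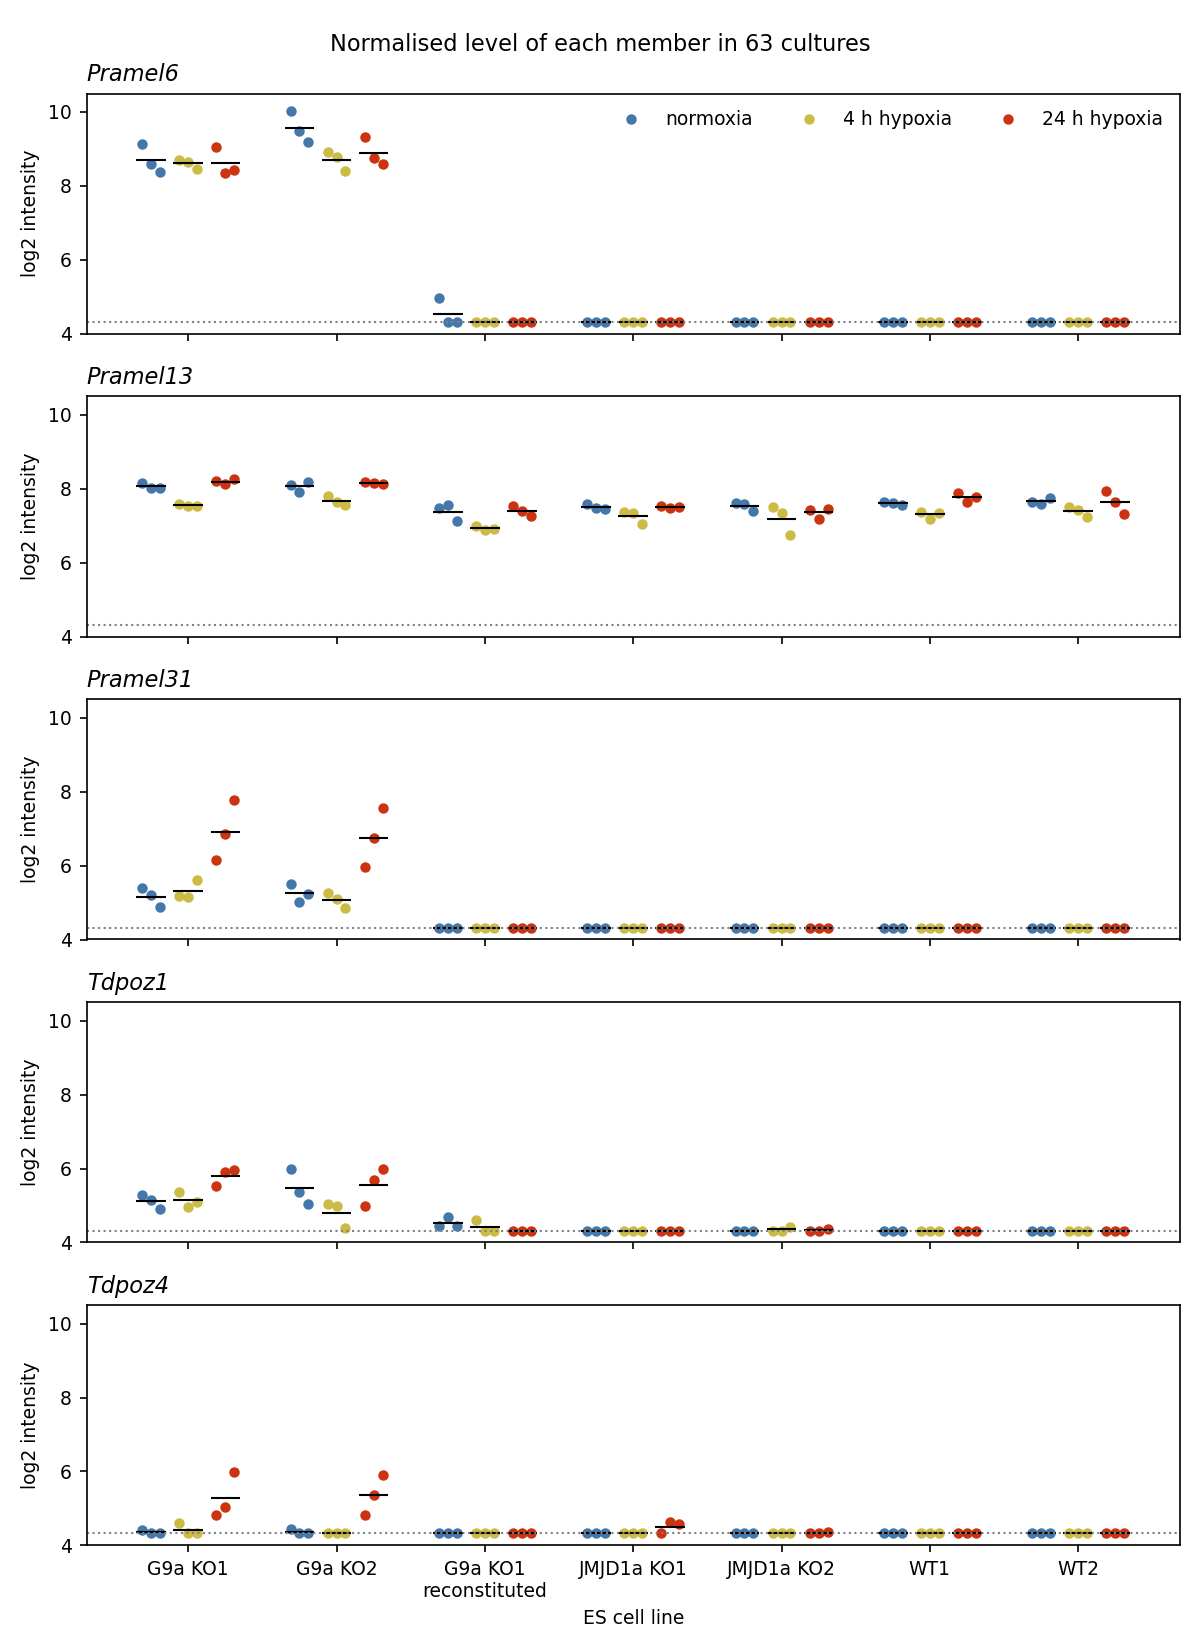
Normalised log2 intensity of each member (vertical axis, 1 panel per gene) in each of 63 cultures, by line along the horizontal axis, with colours for exposure and the floor of 4.32 as a dotted line. Pramel6, Pramel31 and Tdpoz1 are above the floor in all 18 G9a KO cultures, and Pramel13 is above it everywhere.

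G9a KO lines were set against WT lines at each exposure on the line means, 2 against 2, with limma over 8740 genes. Of the 5 members, 4 were higher in G9a KO lines under normoxia, 3 after 4 h and 4 after 24 h, where 7.35%, 11.6% and 3.25% of all genes were called higher. Across all genes the median log2 difference was -0.12, -0.14 and -0.13. No member was called lower, where 16.1%, 22.7% and 3.54% of all genes were. The filter asks for a value above the floor in all 3 cultures of some line and exposure. Pramel6, Pramel31 and Tdpoz4 met it only in G9a KO lines. Counts of members higher in these lines, or lower in the reconstituted line, are therefore a description.

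Pramel6 averaged 9.13 ± 0.60 in G9a KO cultures under normoxia and was at the floor in WT cultures (SD, n = 6 each), a log2 difference of 4.81 ± 0.31 (SE, adjusted p = 0.00867) and at least 24.9-fold. The difference was 4.33 ± 0.06 after 4 h (adjusted p = 2.59e-04, at least 18.6-fold) and 4.44 ± 0.12 after 24 h (adjusted p = 0.00166, at least 20.1-fold). An at-least fold takes, on each array where the probe was at the floor, the lowest value above the floor of any probe there. Within a single array set, Pramel6 was 4.38 higher in G9a KO1 than in JMJD1a KO2, and 4.15 higher in G9a KO2 than in the reconstituted line. These pairs are not matched in exposure. The first sets G9a KO1 mostly under normoxia against JMJD1a KO2 mostly after 24 h. The second sets G9a KO2 after 4 h and 24 h against the reconstituted line under normoxia. In each of these pairs the dimmer line lay at or near the floor, so the width of the gap is a lower limit.

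Pramel31 averaged 5.20 ± 0.23 under normoxia, 5.19 ± 0.25 after 4 h and 6.84 ± 0.72 after 24 h in G9a KO cultures (SD, n = 6 each), with WT cultures at the floor. The log2 differences were 0.88 ± 0.06, 0.87 ± 0.10 and 2.52 ± 0.09 (SE, adjusted p = 0.00924, 0.00955 and 0.00256). As lower bounds these were at least 1.64-fold, 1.69-fold and 5.32-fold. Tdpoz1 differed by 0.97 ± 0.14, 0.65 ± 0.13 and 1.35 ± 0.11 at the 3 exposures (adjusted p = 0.0227, 0.0254 and 0.0212), at least 1.74-fold, 1.45-fold and 2.37-fold. Tdpoz4 was higher at 24 h alone of the 3 exposures, by 1.01 ± 0.10 (adjusted p = 0.0272, at least 1.86-fold), with 0.04 (adjusted p = 0.606) under normoxia and 0.05 (adjusted p = 0.593) after 4 h. The fit on line means uses a spread shared by all lines. For Pramel6, Pramel31, Tdpoz1 and Tdpoz4 the WT lines lie at the floor and have none. The SEs and p-values of these 4 genes therefore do not measure the spread between G9a KO lines alone. The 24 h call of all 4 genes rests on both WT lines. Leaving out WT1 or WT2 left the log2 differences as they were and put the adjusted p between 0.0584 and 0.158. Tdpoz4 also lost its call without either G9a KO line (adjusted p = 0.145 and 0.12).

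Pramel13 was higher in G9a KO lines by 0.43 ± 0.05 under normoxia (adjusted p = 0.0204). The differences of 0.26 ± 0.08 after 4 h (adjusted p = 0.0652) and 0.48 ± 0.10 after 24 h (adjusted p = 0.0586) missed the threshold. At each exposure all 6 G9a KO cultures lay above all 6 WT cultures. These are 3 cultures of each of 2 lines. The share of all genes separated in this way was not counted, here or for the hypoxia contrasts below. No member was called between JMJD1a KO and WT lines at any exposure, where 1 gene of 8740 (0.0114%), Kdm3a, was called at each. Pramel6 and Pramel31 lay at the floor in all cultures of both genotypes, so they could not be called. Tdpoz1 and Tdpoz4 were above it in 2 and 3 of 18 JMJD1a KO cultures and in no WT culture.

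Markers of ES cells and of other cells were read beside these differences. The mean log2 level of 7 ES cell markers, none at the floor throughout a group, ran from 11.95 to 12.23 in G9a KO cultures, from 11.62 to 12.14 in the reconstituted line and from 10.32 to 11.23 in WT cultures under normoxia. The largest differences between G9a KO and WT lines in that list were those of the signalling co-receptor gene Tdgf1, at 4.24 (adjusted p = 0.0445), and the pluripotency factor gene Sox2, at 3.67 (adjusted p = 0.0966). After hypoxia the reconstituted line lay between, at 11.57 to 11.60 after 4 h and 11.50 to 11.60 after 24 h, with G9a KO cultures at 11.92 to 12.10 and 11.99 to 12.17 and WT cultures at 10.37 to 11.21 and 10.13 to 11.07. The mean log2 level of the 3 tested fibroblast feeder markers, of 8 on the array, ran from 4.95 to 6.02 in G9a KO cultures, from 6.46 to 6.76 in the reconstituted line and from 6.03 to 7.95 in WT cultures under normoxia, and none of the 3 was called between G9a KO and WT lines. The 6 tested oocyte and germ cell markers, of 12 on the array, ran from 7.40 to 7.58 in G9a KO cultures, from 6.75 to 6.87 in the reconstituted line and from 6.54 to 6.74 in WT cultures, with 3 called higher and none lower in G9a KO than in WT lines. In both lists the G9a KO cultures did not overlap those of the reconstituted line. The germ cell helicase gene Ddx4 differed most in that list, at 2.38 (adjusted p = 0.0309). Trophectoderm markers (5 tested of 7) ran from 5.55 to 6.27 in G9a KO cultures, from 5.74 to 5.88 in the reconstituted line and from 5.90 to 6.05 in WT cultures. Primitive endoderm markers (3 tested of 7) ran from 4.64 to 5.26 in G9a KO cultures, from 4.79 to 4.93 in the reconstituted line and from 4.98 to 5.29 in WT cultures. The part of these cells in the members' levels was not tested.

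The reconstituted line had lower levels of the members than its parent line G9a KO1. Of the 5, 4 were lower in the reconstituted line under normoxia, 4 after 4 h and all 5 after 24 h, where 13.3%, 20.7% and 20.5% of all genes were called lower. With the array set as a random block 2 stood under normoxia and 2 after 4 h, Pramel6 and Pramel13, while Pramel31 (adjusted p = 0.252 and 0.247) and Tdpoz1 (adjusted p = 0.496 and 0.228) lost their calls, and all 5 stood after 24 h. Pramel6 was lower by 4.16 ± 0.14 under normoxia (SE, n = 3 cultures each, adjusted p = 7.55e-28), and after 4 h and 24 h it was at least 18.2-fold and 18.8-fold lower. Pramel31 fell by 0.83 ± 0.21 under normoxia (adjusted p = 0.00194), by 0.99 after 4 h (adjusted p = 1.20e-04) and by 2.60 after 24 h (adjusted p = 5.55e-14, at least 5.80-fold). Tdpoz1 fell by 0.58 (adjusted p = 0.00417), 0.72 (adjusted p = 1.96e-04) and 1.48 (adjusted p = 1.83e-10). Tdpoz4, at or near the floor in both lines before, fell by 0.97 after 24 h (adjusted p = 3.52e-07, at least 1.87-fold). Pramel13 fell by 0.69 (adjusted p = 2.17e-06), 0.62 (adjusted p = 6.47e-06) and 0.79 (adjusted p = 5.57e-08). The reconstituted line is 1 line that shares no array set with G9a KO1, and its comparison and that with WT share the G9a KO1 cultures.

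**Figure D2:**
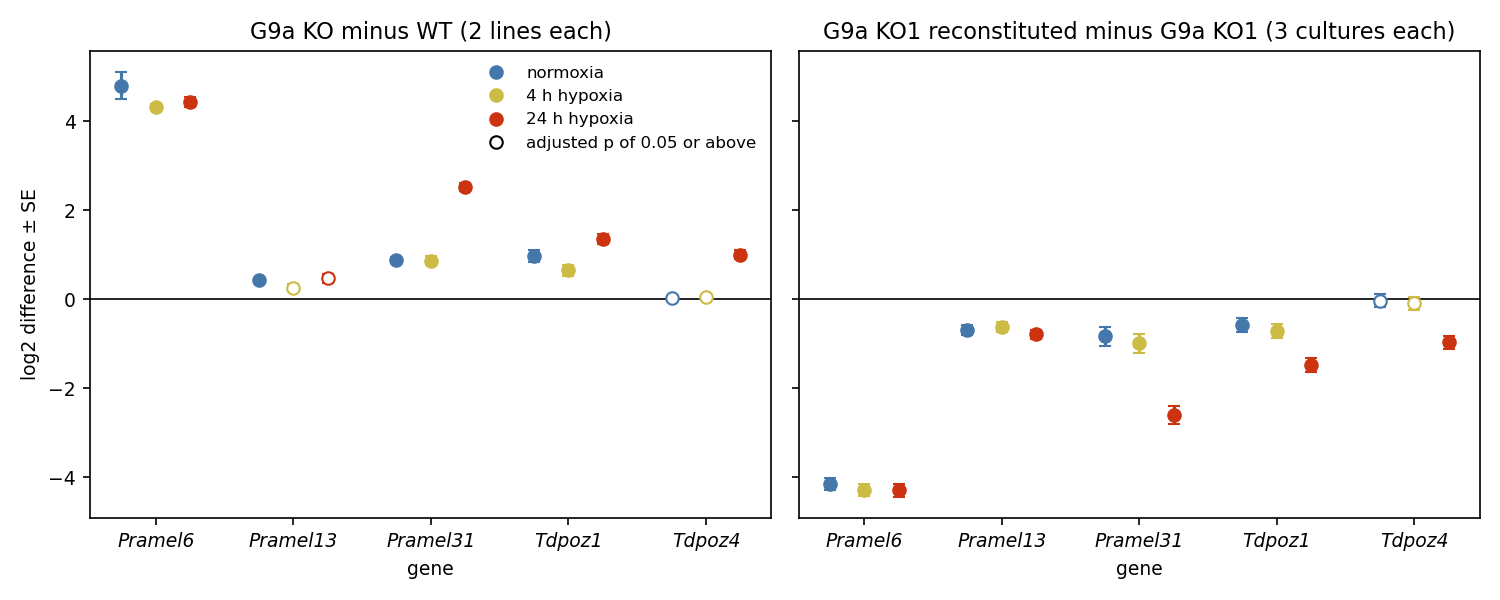
Log2 difference with its SE (vertical axis) for each member (horizontal axis), in panels for G9a KO minus WT lines (2 lines each) and for the reconstituted line minus G9a KO1 (3 cultures each), with colours for exposure and open circles for an adjusted p of 0.05 or above. Pramel6 differs by 4.33 to 4.81 at every exposure between G9a KO and WT, while Pramel31, at 2.52, and Tdpoz4, at 1.01, differ most after 24 h.

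Hypoxia moved the members in different directions in the G9a KO lines. After 24 h against normoxia, Pramel31, Tdpoz4 and Tdpoz1 were higher and Pramel6 was lower, where 21.2% of all genes were called higher and 24.8% lower. After 4 h against normoxia Pramel6, Pramel13 and Tdpoz1 were lower, where 17.5% of all genes were. Between 24 h and 4 h all but Pramel6 were higher, where 17.1% of all genes were. These shares are high, so a call alone sets no member apart.

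Pramel31 was higher by 1.64 ± 0.15 after 24 h than under normoxia (SE, adjusted p = 1.32e-12), with all 6 cultures above all 6, and by 1.65 than after 4 h (adjusted p = 2.02e-12). After 4 h it differed from normoxia by -0.01 (adjusted p = 0.997). Tdpoz4 followed the same order, with 0.97 ± 0.10 after 24 h (adjusted p = 1.03e-10) and 0.01 after 4 h (adjusted p = 0.999). However, Tdpoz4 met the filter only through the G9a KO cultures after 24 h. Its 24 h calls, here and in the responses and density slopes below, are therefore a description. In neither G9a KO line does an array set hold both normoxia and 24 h cultures, so for this contrast exposure and set cannot be told apart. With the set as a random block the 24 h differences were 1.59 for Pramel31 (adjusted p = 2.98e-06) and 0.99 for Tdpoz4 (adjusted p = 1.26e-05). These fits share a spread with lines at the floor, which have none. In a fit to the 18 G9a KO arrays alone, added after the data were seen, the 24 h calls stood with adjusted p = 2.29e-04 for Pramel31 and 5.84e-04 for Tdpoz4. Both lines showed the shift, at 1.77 in G9a KO1 and 1.51 in G9a KO2 for Pramel31 and at 0.94 and 1.00 for Tdpoz4. Within single array sets, 24 h exceeded 4 h by 1.54 in G9a KO1 and 1.69 in G9a KO2 for Pramel31 and by 0.97 and 1.04 for Tdpoz4. In these lines the mean level of the 6 oocyte and germ cell markers was 7.17 to 7.37 after 24 h and 7.40 to 7.58 under normoxia, and that of the 5 trophectoderm markers 6.08 to 6.38 and 5.55 to 6.27. The mean level of 12 genes of 2-cell embryos was 6.69 to 7.50 after 24 h and 6.25 to 6.61 under normoxia. The part of such cells in the rise was not tested.

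Tdpoz1 and Pramel6 depended on the line. Tdpoz1 was 0.32 ± 0.11 lower after 4 h (adjusted p = 0.0247) and 0.38 higher after 24 h (adjusted p = 0.00430) than under normoxia, with overlapping cultures, and by line the 4 h difference was 0.03 in G9a KO1 and -0.66 in G9a KO2, the 24 h difference 0.69 and 0.08. With the G9a KO arrays alone neither call stood (adjusted p = 0.244 and 0.13), whereas that of 24 h against 4 h did, at 0.70 (adjusted p = 0.0137). Pramel6 was 0.47 ± 0.10 lower after 4 h (adjusted p = 1.76e-04) and 0.37 lower after 24 h (adjusted p = 0.00196). With the array set as a random block the 24 h calls of Pramel6 (adjusted p = 0.0793) and Tdpoz1 (adjusted p = 0.0771) and the 4 h call of Tdpoz1 (adjusted p = 0.266) were lost. By line the 4 h difference of Pramel6 was -0.09 in G9a KO1 and -0.86 in G9a KO2, and the 24 h difference -0.08 and -0.66. In G9a KO2 the 4 h cultures also share no array set with normoxia. Within single sets the 4 h difference of Pramel6 was 0.017 and that of Tdpoz1 was 0.26, each from 1 culture of G9a KO1 against 3. Densities were not matched there, with density 2 after 4 h against densities 2, 4 and 6 under normoxia. At density 2 Pramel6 stood at 8.71 after 4 h and 9.13 under normoxia, and Tdpoz1 at 5.37 and 5.28.

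Pramel13 fell by 0.45 ± 0.08 after 4 h in the G9a KO lines (adjusted p = 5.80e-06), with all 6 cultures below all 6 of normoxia, and was 0.56 higher at 24 h than at 4 h (adjusted p = 6.61e-08). At 24 h it differed from normoxia by 0.11 (adjusted p = 0.254). The dip was not limited to these lines. Pramel13 fell after 4 h by 0.45 in the reconstituted line (adjusted p = 0.00110), by 0.29 in JMJD1a KO lines (adjusted p = 0.00298) and by 0.28 in WT lines (adjusted p = 0.00376), and was higher at 24 h than at 4 h by 0.47, 0.21 and 0.35 in the same lines (adjusted p = 0.00128, 0.0309 and 3.88e-04). Of all genes, 14.5% were called lower after 4 h in the reconstituted line, 16.9% in JMJD1a KO lines and 13% in WT lines, and 9.2%, 14.8% and 12.3% were called higher at 24 h than at 4 h.

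Whether the response to 24 h of hypoxia differed between G9a KO and WT lines was tested on the lines and on the cultures. On the lines, 2 against 2, limma called 0 of 8740 genes for 24 h (553 at an unadjusted p under 0.05), and Pramel31 gave a difference of 1.64 ± 0.13 (unadjusted p = 1.09e-04, adjusted p = 0.119). The 4 h response called 0.0801% of all genes on the lines and no member. On the cultures Pramel31 (adjusted p = 1.25e-07) and Tdpoz4, at 0.97 (adjusted p = 2.91e-06), were called, where 7.53% of all genes were called higher. The 4 h response of Pramel6 was called lower on the cultures, at -0.47 (adjusted p = 0.0388), where 2.33% of all genes were. The WT value in these differences is a floor, under which a WT response cannot be seen.

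The plating density was tested over the same cultures. In a single slope fitted over all lines and exposures Pramel6 fell by 0.05 ± 0.01 (adjusted p = 0.00214) and Pramel13 by 0.04 ± 0.01 (adjusted p = 0.00147) per 100000 cells plated, where 17.7% of all genes were called lower. Pramel6 lay at the floor in 44 of the 45 cultures outside the G9a KO lines, where no fall can be seen. The single slope of Pramel6 therefore mixes cultures at the floor with the G9a KO cultures. It understates the fall in the G9a KO lines, and its SE takes in cultures without a spread. Since the G9a KO cultures at 24 h were seen to be ordered by density, slopes were then fitted separately in the G9a KO lines at each exposure. All 3 densities of a line under normoxia, and likewise after 24 h, lie in 1 array set.

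Under normoxia the denser G9a KO cultures had less of 3 members, where 3.96% of all genes were called lower. The slope per 100000 cells was -0.20 ± 0.03 for Pramel6 (SE, adjusted p = 3.21e-06), -0.17 ± 0.03 for Tdpoz1 (adjusted p = 1.14e-04) and -0.10 ± 0.02 for Pramel31 (adjusted p = 0.00911). With the G9a KO arrays alone Pramel6 kept its call (adjusted p = 0.00743), while Tdpoz1 (adjusted p = 0.0568) and Pramel31 (adjusted p = 0.22) did not. After 4 h the slopes of Pramel6, at -0.09 (adjusted p = 0.0323), and Tdpoz1, at -0.12 (adjusted p = 0.00756), were called lower, where 3.73% of all genes were, and neither was called with the G9a KO arrays alone. After 24 h of hypoxia the order was turned for Pramel31, Tdpoz4 and Tdpoz1, with slopes of 0.40 ± 0.02 (adjusted p = 8.26e-16), 0.28 ± 0.02 (adjusted p = 1.94e-14) and 0.18 ± 0.03 (adjusted p = 3.81e-05), where 3.15% of all genes were called higher. Pramel6 kept a negative slope of -0.17 ± 0.03 (adjusted p = 5.62e-05), where 2.04% were called lower, and Pramel13 had 0.00 (adjusted p = 1) at both exposures.

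The change of slope between 24 h and normoxia was 0.50 ± 0.03 for Pramel31 (adjusted p = 7.22e-14), 0.34 for Tdpoz1 (adjusted p = 1.16e-07) and 0.30 ± 0.03 for Tdpoz4 (adjusted p = 3.88e-11). It was called higher for 0.87% of all genes. It was 0.03 for Pramel6 and 0.01 for Pramel13 (adjusted p = 1 for each). With the G9a KO arrays alone the calls of Pramel31, Tdpoz1 and Tdpoz4 stood, with adjusted p = 0.00492, 0.0474 and 0.00492. The slopes under normoxia and after 24 h come from different array sets. This fit was chosen on the same cultures, so its p-values are no independent evidence of the pattern.

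**Figure D3:**
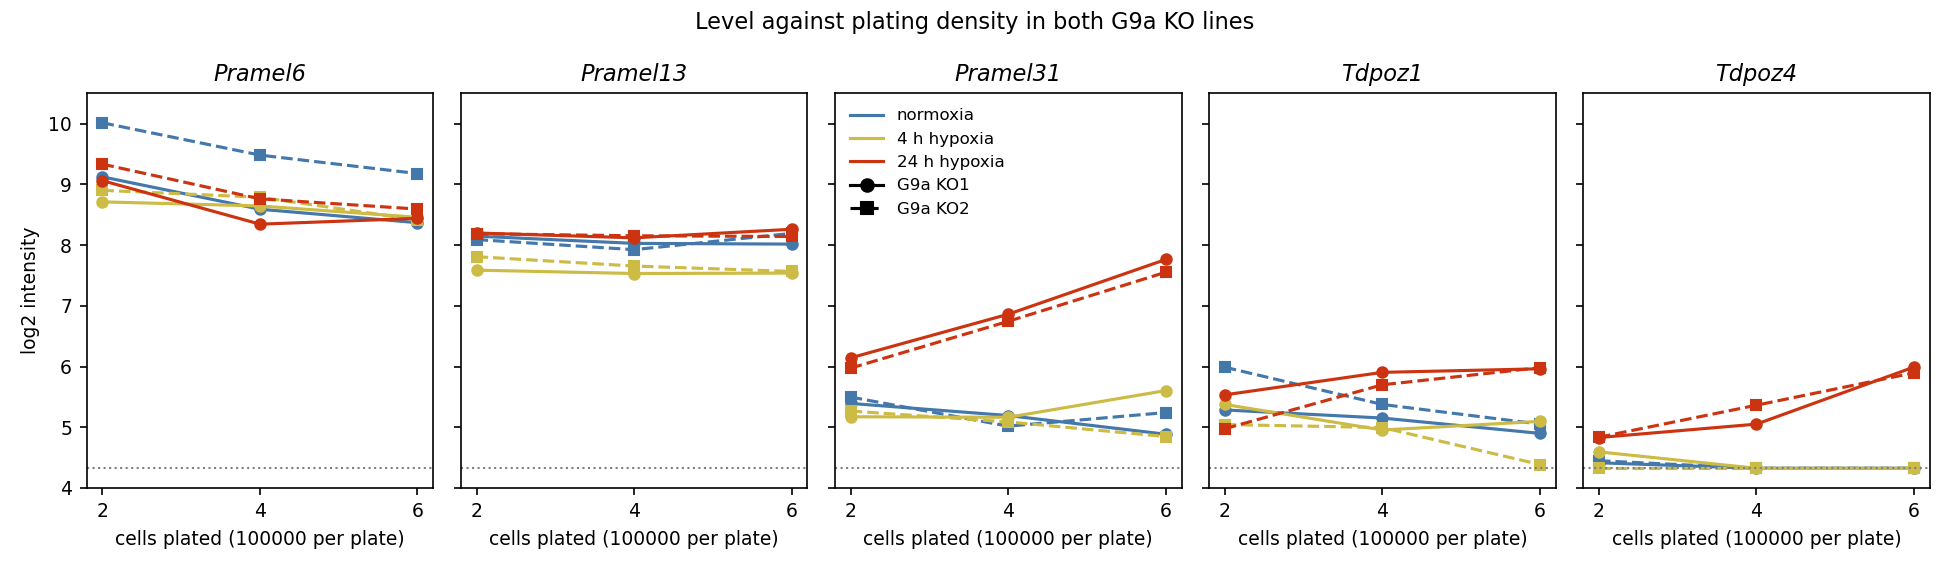
Normalised log2 intensity (vertical axis) against cells plated, in units of 100000 per plate (horizontal axis), for each member in both G9a KO lines, with colours for exposure and the floor of 4.32 dotted. After 24 h Pramel31 climbs with density in both lines, to 7.76 in G9a KO1 and 7.55 in G9a KO2 at density 6, whereas Pramel6 is highest at density 2.

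The other genes of the families show how far these patterns extend. The array held 21 further Pramel and Tdpoz genes with 26 probes, 14 of them at the floor on every array, and 9 genes passed the filter. The filter keeps a gene that was measurable in a single group, so counts over the 9 are given as a description. Of the 9, 7 were called higher in G9a KO than in WT lines under normoxia, 5 after 4 h and 7 after 24 h, with median log2 differences of 1.18, 1.15 and 2.85, beside 7.35%, 11.6% and 3.25% of all genes. The 24 h difference was 4.16 for Pramel37 (adjusted p = 0.00256), 3.69 for Gm16367, a gene of the Pramel family (adjusted p = 0.00240), 3.45 for Pramel7 (adjusted p = 0.00605), 3.02 for Pramel39 (adjusted p = 0.00328), 2.85 for Pramel20 (adjusted p = 0.00256), 1.60 for Tdpoz2 (adjusted p = 0.00682) and 0.61 for Pramel17 (adjusted p = 0.0451). Tdpoz8, at 0.74 (adjusted p = 0.123), and Pramel12, at -0.52 (adjusted p = 0.101), were not called. In the reconstituted line 8, 6 and 7 of the 9 were lower than in G9a KO1 at the 3 exposures, and Pramel12 was higher after 24 h, by 0.45 (adjusted p = 0.00267).

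Pramel7 directs the degradation of the DNA methylation cofactor UHRF1 in ES cells. In the G9a KO lines it had no called rise after 24 h of hypoxia. Pramel6, Pramel13 and Pramel17 had none either, with Pramel17 at a mean of 4.94 after 24 h and 4.96 under normoxia. The start of Pramel7 lies 14147 bases from that of Pramel6 on the same chromosome. Pramel7 averaged 7.89 ± 0.35 in G9a KO cultures after 24 h and 7.75 ± 0.57 under normoxia (SD, n = 6 each), a difference of 0.14 (adjusted p = 0.389). By contrast 24 h of hypoxia was higher than normoxia in the G9a KO lines by 1.67 for Pramel20, 1.57 for Pramel37, 1.57 for Gm16367 and 1.47 for Pramel39, with 0.72 for Tdpoz8 and 0.61 for Tdpoz2, 6 of 9 in all, beside 21.2% of all genes. Pramel12 fell by 1.37 (adjusted p = 5.91e-17). Of the same 9, 7 had a lower level in denser G9a KO cultures under normoxia, beside 3.96% of all genes. After 24 h 6 had a higher level, beside 3.15%, and Pramel7 a lower one, with a slope of -0.12 (adjusted p = 0.0242). The change of slope was called higher for 7, with a median of 0.51, beside 0.87% of all genes. These counts come from the slopes that were chosen on the same cultures.

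**Figure D4:**
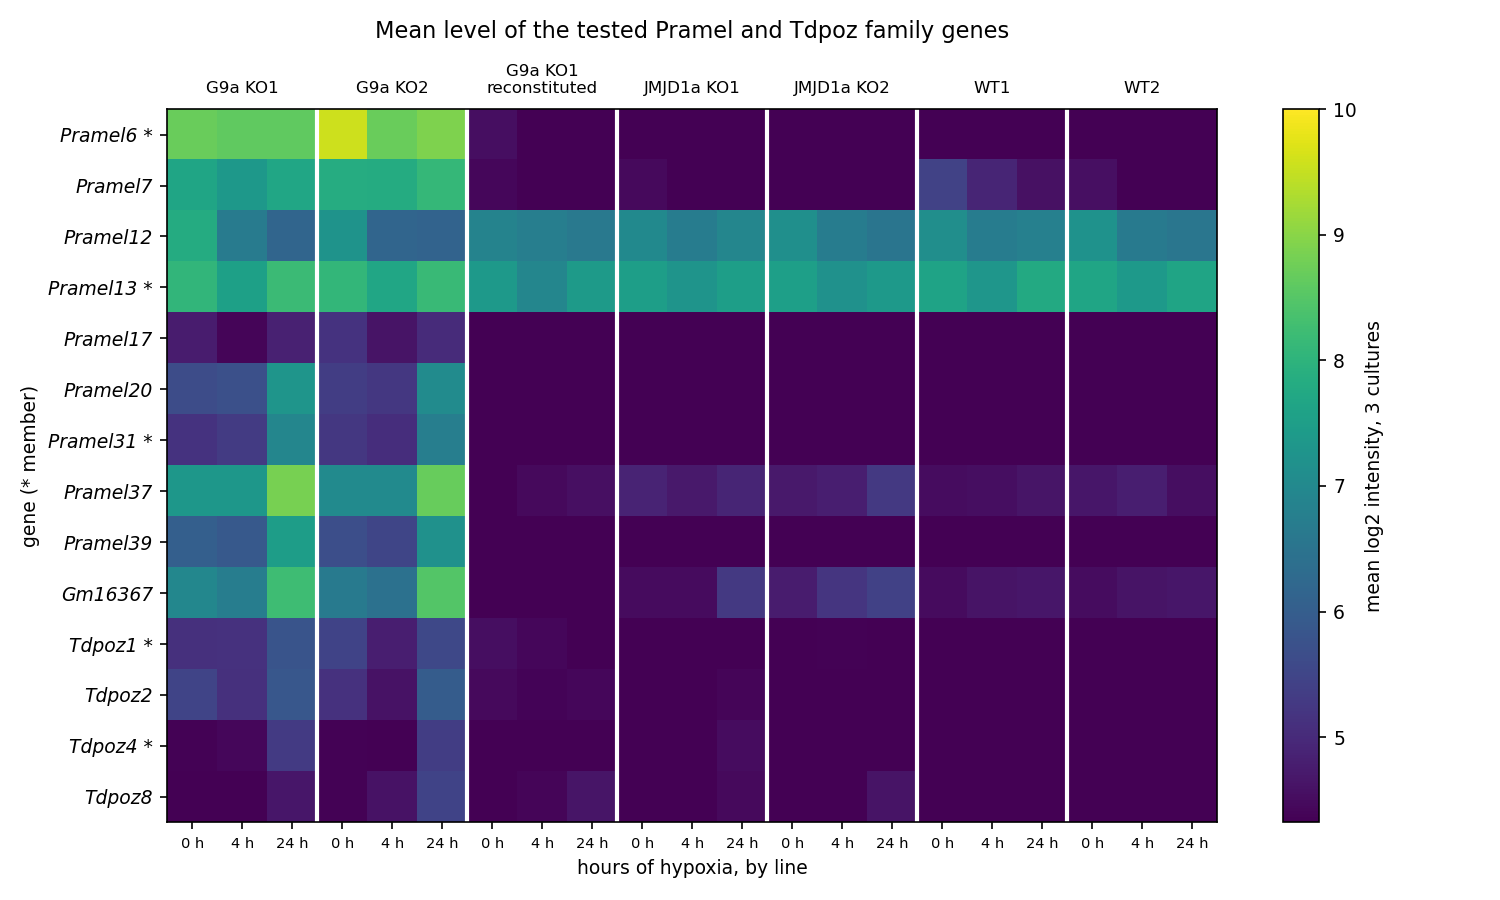
Mean log2 level (colour scale) of the 5 members, marked with an asterisk, and the 9 other tested family genes (rows), in each line at 0, 4 and 24 hours of hypoxia (columns). The G9a KO columns stand apart for most rows, and Pramel13 and Pramel12 have a level in all lines.

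Genes known from the same biology were read as lists from the same fits. Beside their counts stand the shares of all genes called higher in G9a KO than in WT lines, 7.35%, 11.6% and 3.25% at the 3 exposures, and those called in the G9a KO lines after 24 h of hypoxia, 21.2% higher and 24.8% lower. Of the tested 2-cell genes 7 lay at the floor in all WT cultures of each exposure, so they passed the filter through other lines, and the counts over this list are a description. Of 12 tested genes transcribed in 2-cell embryos or 2-cell-like ES cells, 2 of which (Pramel17 and Tdpoz2) are also family genes, 5 were higher in G9a KO than in WT lines under normoxia, 3 after 4 h and 9 after 24 h. The largest 24 h differences in this list were those of Tcstv3, at 4.30 (adjusted p = 0.0262), Tcstv1, at 3.04 (adjusted p = 0.00878), Zscan4c, a telomere regulator of 2-cell-like cells, at 3.00 (adjusted p = 0.0101), and Tdpoz2, given above. In the G9a KO lines 9 of the 12 were higher after 24 h of hypoxia than under normoxia and 1 was lower, with a median of 0.65. Those that moved most were Tcstv3, by 1.66 (adjusted p = 2.16e-08), Tcstv1, by 1.62 (adjusted p = 2.58e-08), the arginase gene Arg2, by 1.47 (adjusted p = 6.70e-16), and Zfp352, by 0.74 (adjusted p = 8.32e-11). Among 18 tested genes of naive pluripotency, 3, 4 and 3 were higher in G9a KO lines at the 3 exposures and none was lower under normoxia or after 24 h. After Sox2, the largest differences in this list under normoxia were those of Nr0b1, at 2.50 (adjusted p = 0.0693), Klf4, at 1.81 (adjusted p = 0.0178), and Tbx3, at 1.73 (adjusted p = 0.0725). After 24 h of hypoxia 4 were higher and 10 lower than under normoxia in the G9a KO lines, with Tcl1 lower by 1.08, Dppa3, a maternal factor gene, lower by 1.03, Socs3, a LIF pathway target, higher by 0.96 and Tbx3 lower by 0.93 (adjusted p = 4.30e-12, 2.43e-16, 3.18e-15 and 2.18e-08). Of 12 tested subunits and partners of cullin ubiquitin ligases, 3, 2 and 0 were higher. Among them Uhrf1, the target of Pramel7 named above, was 0.54 higher in G9a KO than in WT lines under normoxia (adjusted p = 0.0187), while Vhl, at 2.06 (adjusted p = 0.151), Klhl13, at 2.02 (adjusted p = 0.199), and Spop, at -0.75 (adjusted p = 0.0635), were not called. Of 11 tested genes of H3 lysine 9 methylation 1 was higher and 2 were lower in G9a KO lines under normoxia, with Jmjd1c at 3.25 (adjusted p = 0.0908), Cbx3 at 2.27 (adjusted p = 0.136), Ehmt2 as above and Cbx5 at -0.71 (adjusted p = 0.0508).

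The genes whose levels over the 21 means of line and exposure were most like each member were named by Pearson correlation (r) over all tested genes, with Spearman's rho beside it, as a description. The points share lines and array sets, and for genes at the floor in most lines a single group of lines sets the value. For Pramel6 they were the cancer-testis genes Magea3 (r = 0.999, rho = 0.939), Magea6 (r = 0.997, rho = 0.945) and Magea5 (r = 0.997, rho = 0.947) and the channel gene Pkd2l1 (r = 0.998, rho = 0.943), which were above the floor on 18 of 18 G9a KO arrays and on 0 of 45 others. For Pramel31 they were Pramel20 (r = 0.994, rho = 0.998), BC147527 (r = 0.992, rho = 0.943), Gm20767 (r = 0.991, rho = 0.941) and Pramel39 (r = 0.983, rho = 0.945). For Tdpoz1 they were the MHC class I gene H2-D1 (r = 0.983, rho = 0.932), Cldn34b3 (r = 0.978, rho = 0.860), the germ cell transcription factor gene Sohlh2 (r = 0.976, rho = 0.860) and Pramel39 (r = 0.967, rho = 0.862). For Tdpoz4, which was measured on 12 arrays, they were AF067063 (r = 0.989, rho = 0.701), Clec10a (r = 0.988, rho = 0.769), Phf11a (r = 0.987, rho = 0.607) and Osbpl6 (r = 0.986, rho = 0.494). For Pramel13 the likeness was lower, with Hps6 (r = 0.880, rho = 0.844), Dcbld1 (r = 0.853, rho = 0.861), Vpreb1 (r = 0.849, rho = 0.778) and Sgpp1 (r = 0.849, rho = 0.862). Among the members themselves Pramel31 and Tdpoz1 gave r = 0.942 and Pramel6 and Tdpoz4 r = 0.522.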

How the data were processed

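Total RNA of 63 cultures was labelled as biotin cRNA and hybridised to Illumina mouse arrays, 1 array per culture. The values are the deposited linear intensities of the authors' value table, made with BeadStudio per the submitters' processing notes, which give no version. They range from a floor of 20 to 41907. On the array of G9a KO2 at density 2 after 4 h, 9339 probes share a second low value of 21.9 and were treated as at the floor. The other deposited table was not used, and its 126 columns entered no step.

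From the deposited intensities, log2 values were computed, quantile normalised with limma 3.58.1 in R 4.3.3 and kept at or above the floor of 4.32. The filter asked for a value above the floor in each of 3 cultures of some line at some exposure and left 12754 probes, of which the brightest per gene was used (8740 genes). Symbols came from the platform annotation, updated through RefSeq. Cultures were compared in a limma fit over the 21 means of line and exposure with a linear density term, and genotypes on line means, 2 lines against 2. P-values were adjusted over all genes (Benjamini-Hochberg, two-sided, threshold 0.05). Members, lists and tests were chosen with earlier results of these data known. Besides the members, the genes named were the other tested family genes, up to 4 with the largest differences in a list, the 4 most like each member, Kdm3a, Ehmt2 and Adm. The arrays' number limits the precision. Alternatives are in the closing section.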

Additional observations from a re-analysis of the deposited data

Results flagged for a closer look

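In 24 member groups of 4 to 10 cultures with any spread, 4 had a culture far from the rest. Chance gives about 5% for values without a floor. Where all cultures but the highest lie at the floor, as for Tdpoz1 and Tdpoz4 below, a flag is certain. The count of 4 is therefore not set against that 5%. Pramel13 in JMJD1a KO cultures after 24 h had its lowest value, 7.19, in JMJD1a KO2 at density 4. Tdpoz1 stood at 4.43 after 4 h and at 4.37 after 24 h in JMJD1a KO2 at density 6, with the other JMJD1a KO cultures at the floor. Tdpoz4 stood at 4.59 after 4 h in G9a KO1 at density 2, with the other G9a KO cultures of that exposure at the floor.

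The hypoxia response differed between G9a KO and WT lines when tested on cultures for Pramel31, by 1.64 after 24 h (adjusted p = 1.25e-07), for Tdpoz4, by 0.97 after 24 h (adjusted p = 2.91e-06), and for Pramel6, by -0.47 after 4 h (adjusted p = 0.0388). On the lines no member was called. Every WT culture of these genes lay at the floor.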

How the results depend on the processing

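For the 5 genes 911 values were recomputed under alternatives, of which 825 were counted as the same, 68 lost and 14 gained a call. The same means the same side of the threshold. Within single array sets, which gave no test, it means closer to the main value than the mean SD of cultures within a G9a KO line and exposure. Where neither fit gave a call, a turn of sign was not counted. Among the other values the direction turned in 4. These included the 4 h differences of Pramel6 (0.017) and Tdpoz1 (0.26) within single array sets, where densities were not matched. The others were that of Tdpoz1 with 1 G9a KO line left out (-0.66 without G9a KO1 and 0.030 without G9a KO2) and the 4 h density slope of Pramel31 (-0.11 without G9a KO1 and 0.11 without G9a KO2, against 0.00 with both). Keeping only genes above the floor on all 63 arrays left Pramel13 alone to test, so every count of members called became 1 or 0. With the floor doubled, 2, 1 and 2 members were higher in G9a KO than in WT lines at 0, 4 and 24 h, and 2 were lower in the reconstituted line at 0 and at 4 h. With the line number as a replicate block 2 were higher at 0 and 2 at 24 h, with Tdpoz4 at adjusted p = 0.0706. Line numbers are names: the deviations of same-numbered G9a KO and WT lines correlated at -0.24, -0.023 and 0.15 over genes at 0, 4 and 24 h, and those of 63 pairs of cultures of 1 line and density at a median of 0.17 (-0.15 to 0.39). With the array set as a random block (correlation 0.709) 0 were lower at 24 h than under normoxia and 2 were lower in the reconstituted line at 0 and at 4 h. Tested on cultures, the response difference called 2 members higher at 24 h and 1 lower at 4 h. Leaving out 1 line or density moved the count higher in G9a KO lines at 24 h between 0 and 4, those lower at 4 h and at 24 h than normoxia between 1 and 3 and between 0 and 1, that lower in the reconstituted line under normoxia between 2 and 4, the response count at 4 h between 0 and 1 and that lower with density between 0 and 2. For the slopes in the G9a KO lines, 1 member was lower under normoxia with those arrays alone, and at 4 h 1 was lower without further scaling, 1 with the floor doubled and 0 with those arrays alone, with 0 lower and 1 higher without G9a KO2. Pramel13 at 24 h was called higher in G9a KO lines without scaling (0.73, adjusted p = 0.0231) and with equal medians (0.62, adjusted p = 0.0407). The causes were not tested.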
